A study of Mus musculus with 9 samples.

Results

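The Cyp4a genes encode the cytochrome P450 enzymes that hydroxylate the terminal (omega) carbon of fatty acids in the endoplasmic reticulum. All genes of the deposited liver table whose symbol is Cyp4a10, Cyp4a12a, Cyp4a12b, Cyp4a14, Cyp4a31 or Cyp4a32 were taken, which gave 6 of the 33211 genes listed. These genes were chosen by their measured differences between the diet groups, among them the lower counts of Cyp4a10 and Cyp4a14 in mice fed the fridge-stored diet. Their differences between the groups are therefore given as a description, without a p-value of their own. All 6 passed the filter on low counts that left 14220 genes for testing.

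Livers of C57BL/6 mice, young males of the C57BL6/J strain per the study's methods, were profiled by RNA-seq. The mice ate a high-fat diet (HFD) after its storage in a freezer (HFDfre, 5 libraries) or a fridge (HFDfri, 4 libraries). Both groups were wild type and both ate an HFD, so no library shows the liver on a standard diet. The comparison asks how storage of the diet relates to gene expression in the liver.

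Omega-hydroxylation is the first step of a side route of fatty acid breakdown. The hydroxylated fatty acid is oxidised by alcohol and aldehyde dehydrogenases to a dicarboxylic acid, which peroxisomes then shorten. In mouse liver, Cyp4a10, Cyp4a14 and Cyp4a31 are known targets of PPARA, the nuclear receptor that fatty acids and fibrate drugs activate, whereas Cyp4a12a and Cyp4a12b are known for higher expression in males and for their dependence on androgen. Cyp4a12a is also the main mouse enzyme that makes 20-HETE, a vasoactive lipid, from arachidonic acid.

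The 6 genes lie in 1 cluster on chromosome 4, between positions 115299046 and 115621602 of GRCm38 (GENCODE M21), a span of 323 kb. Cyp4a14 is on the minus strand and the other members are on the plus strand, and each reference transcript has 12 or 13 exons. How alike the copies are bears on every value, since a read from a shared stretch cannot by itself be assigned to 1 copy. The coding sequences of Cyp4a12a and Cyp4a12b were 98.5% identical, with 23 differing positions. Cyp4a10 was 96.6% identical to Cyp4a31 and 97.2% identical to Cyp4a32. Cyp4a14 stood apart, at 75.9% identity to Cyp4a10. The 60 coding bases around the codon of the cysteine that holds the heme iron, residue 456 in Cyp4a10, show these relations. They are written 5′ to 3′, with capitals at bases that differ from Cyp4a10:
Cyp4a10: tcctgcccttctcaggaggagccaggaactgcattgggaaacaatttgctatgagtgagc
Cyp4a31: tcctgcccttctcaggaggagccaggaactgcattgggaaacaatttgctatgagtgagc
Cyp4a32: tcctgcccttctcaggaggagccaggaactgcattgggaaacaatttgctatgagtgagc
Cyp4a14: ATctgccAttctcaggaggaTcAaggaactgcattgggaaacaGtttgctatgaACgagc
Cyp4a12a: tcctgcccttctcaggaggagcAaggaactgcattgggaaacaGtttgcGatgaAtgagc
Cyp4a12b: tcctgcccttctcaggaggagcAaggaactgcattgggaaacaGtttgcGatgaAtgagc

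Over these bases Cyp4a10, Cyp4a31 and Cyp4a32 did not differ, and neither did Cyp4a12a and Cyp4a12b. Cyp4a14 differed from Cyp4a10 at 8 of the 60 bases and the Cyp4a12 pair at 4.

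A read by itself can be assigned to a copy only where the copies differ. For the Cyp4a12 pair and for Cyp4a10 and Cyp4a31, the 60 coding bases with the most differences are given below, with capitals at the bases that differ within the pair. The Cyp4a12 stretch covers coding bases 624 to 683 and holds 4 differences, and the other covers coding bases 106 to 165 and holds 6:
Cyp4a12a: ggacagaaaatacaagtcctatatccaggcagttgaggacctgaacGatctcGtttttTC
Cyp4a12b: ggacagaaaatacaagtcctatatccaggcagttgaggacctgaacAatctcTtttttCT
Cyp4a10: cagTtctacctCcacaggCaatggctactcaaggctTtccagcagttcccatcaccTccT
Cyp4a31: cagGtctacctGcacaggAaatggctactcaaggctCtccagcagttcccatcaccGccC

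The longest run of identical bases in the reference transcripts was 401 between Cyp4a12a and Cyp4a12b, against 186 between Cyp4a10 and Cyp4a31 and 23 between Cyp4a10 and Cyp4a14. Of all 150-base windows of the Cyp4a12b transcript, 25.9% were found without a mismatch in Cyp4a12a. The share was 7.97% for Cyp4a32, whose reference transcript holds only coding bases, 4.34% for Cyp4a10 and 4.19% for Cyp4a31. No window of Cyp4a14 was found in another member. By share of windows, values of Cyp4a12a and Cyp4a12b are therefore the least certain as to which copy they belong to, and those of Cyp4a14 the most certain. The share does not weigh the levels of the copies. Cyp4a10 shares windows with Cyp4a31 and Cyp4a32 and had far more counts, with 21350 against 583 and 849 in HFDfre 1. How much this bears on the values of Cyp4a31 and Cyp4a32 was not tested. The window shares treat each read alone, whereas the reads were paired per the study's methods. A mate outside a shared stretch can place its fragment. Cyp4a12b also overlaps Gm12837 on the other strand, which was not analysed here, and the use of strand in the counting is not given in the sources used here.

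The 9 libraries held 58614917 to 69353439 counts, of which the 6 members took 0.0585% to 0.172%. Gm26924, a ribosomal RNA-like locus, took 0.466% to 11.1% of the counts, with the highest share in HFDfre 1. The hepatocyte markers were high in all libraries, with Alb (albumin) at a mean of 65828 CPM (a count relative to the library total after TMM scaling, which corrects for composition) in HFDfre and 63983 in HFDfri. Of 12 markers of other cells, 9 passed the filter and none was called by edgeR, DESeq2 or voom, with 1 at an unadjusted p under 0.05 in edgeR. Their summed level was 83.9 to 130 CPM in HFDfre and 85.4 to 109 CPM in HFDfri, and the fat cell marker Adipoq was at 0 in every library. Among all tested genes, the quasi-likelihood test of edgeR called 150, of which 79 were lower in HFDfri, at a Benjamini-Hochberg adjusted p under 0.05. In edgeR 21.2% of all tested genes had an unadjusted p under 0.05, and at the adjusted threshold DESeq2 called 7.26% and voom 1.04% of them. The median log2 fold change (HFDfri over HFDfre) of all tested genes was -0.01.

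Within the cluster, the PPARA-induced paralogs Cyp4a10 and Cyp4a14 were lower in the liver of HFDfri mice, Cyp4a12b was at higher values there, and Cyp4a12a was at like means in both groups. Of the 6 members 2 were called, Cyp4a10 and Cyp4a14, both lower in HFDfri. Of all tested genes 0.556% were called lower and 1.05% were called in either direction. For 3 of the 6 members the groups did not overlap, as was the case for 7.69% of all tested genes. Since the members were chosen with this contrast known, nothing is read from these shares.

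Cyp4a14, the member furthest from the others in sequence, was at 214, 389, 331, 730 and 435 CPM in HFDfre 1 to 5 and at 126, 109, 209 and 96.7 CPM in HFDfri 1 to 4. The groups did not overlap, but HFDfri 3 came close to HFDfre 1, the lowest library of its group, and HFDfre 4 was far above the rest. The means were 420 ± 192 CPM (SD, n = 5) and 135 ± 50.8 CPM (SD, n = 4), a 3.10-fold lower level in HFDfri. The log2 fold change was -1.63 ± 0.33 (SE), at rank 86 from the lowest of the 14220 tested genes. Leaving out each library in turn moved it between -1.92, without HFDfri 3, and -1.34, without HFDfre 4.

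Cyp4a10 was at 411, 417, 525, 696 and 550 CPM in HFDfre 1 to 5 and at 297, 243, 350 and 255 CPM in HFDfri 1 to 4. Again HFDfre 4 was the highest library, HFDfri 3 was the highest of its group, and the groups did not overlap. The means were 520 ± 117 CPM (SD, n = 5) and 286 ± 48.6 CPM (SD, n = 4), with a log2 fold change of -0.86 ± 0.17 (SE), which is 1.82-fold lower in HFDfri. It ran from -0.97 to -0.73 as each library was left out. Both Cyp4a10 and Cyp4a14 stayed below 0 under all 21 alternative settings and omissions of a library, and each was called in 9 of them. In bulk liver RNA, fewer cells with a transcript and less transcript per cell cannot be told apart.

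Cyp4a31, the near-copy of Cyp4a10, was at 11.2, 13.1, 14.2, 19.8 and 13.1 CPM in HFDfre 1 to 5 and at 14.6, 7.63, 11.7 and 9.08 CPM in HFDfri 1 to 4. HFDfre 4 was again the highest, and HFDfri 1 lay among the HFDfre libraries, so the groups overlapped. The log2 fold change was -0.41 ± 0.20 (SE), below 0 under all 20 alternatives but not called in any. Cyp4a32, for which no induction by PPARA was assumed here, was at 16.3, 22.6, 13.5, 21.8 and 13.6 CPM in HFDfre 1 to 5 and at 17.4, 17.3, 18.3 and 14.3 CPM in HFDfri 1 to 4. The HFDfri libraries lay inside the HFDfre range, and the log2 fold change of -0.06 ± 0.17 (SE) kept its sign in 16 of 20 alternatives. With the counts of Cyp4a10, Cyp4a31 and Cyp4a32 summed to 1 gene, the log2 fold change was -0.81.

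Cyp4a12a, the main 20-HETE synthase, was at 126, 105, 193, 149 and 107 CPM in HFDfre 1 to 5 and at 166, 152, 102 and 129 CPM in HFDfri 1 to 4. The groups overlapped, with means of 136 ± 36.5 and 137 ± 27.8 CPM. Its log2 fold change of 0.01 ± 0.19 (SE) was above 0 in 14 of 21 alternatives. Cyp4a12b was at 49.0, 34.4, 48.9, 24.04 and 32.3 CPM in HFDfre 1 to 5 and at 56.1, 60.7, 53.6 and 59.7 CPM in HFDfri 1 to 4. Here the HFDfri libraries sat together above every HFDfre library, and HFDfre 4 was the lowest of all 9. The log2 fold change was 0.61 ± 0.18 (SE). It was above 0 in all 20 alternatives and called in 1, and it was not called in the edgeR fit reported here. With Cyp4a12a and Cyp4a12b summed to 1 gene, it was 0.17.

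**Figure D1:**
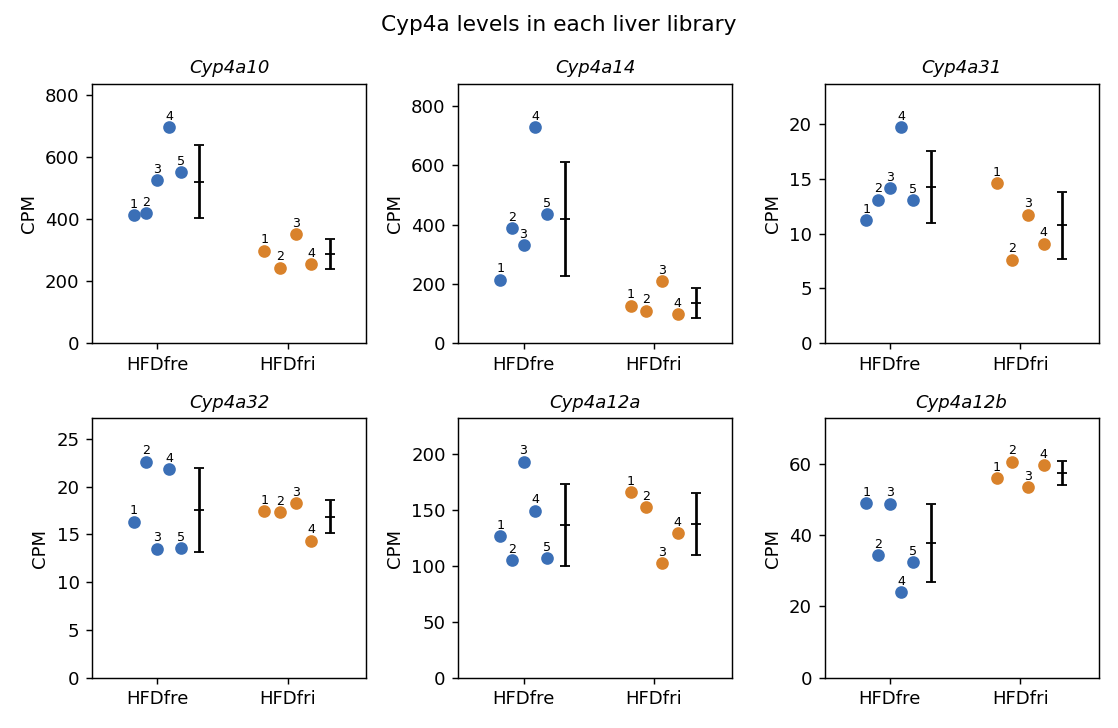
Level of each Cyp4a gene in CPM (linear axis from 0), with 1 point per library, numbered within its group, and bars at the mean ± SD of HFDfre (n = 5) and HFDfri (n = 4). The groups are apart for Cyp4a10, Cyp4a14 and Cyp4a12b and overlap for Cyp4a31, Cyp4a32 and Cyp4a12a, and HFDfre 4 is the highest library for Cyp4a10, Cyp4a14 and Cyp4a31 and the lowest for Cyp4a12b.

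Levels of different genes were compared per kilobase of the reference transcript. On this scale Cyp4a10 was the highest in both groups, at 247 ± 55.3 CPM per kb in HFDfre and 136 ± 23.0 in HFDfri (SD). Cyp4a14 was next in HFDfre at 168 ± 77.1 CPM per kb, and its library range overlapped that of Cyp4a10. In HFDfri Cyp4a14 was at 54.2 ± 20.3 CPM per kb and Cyp4a12a at 56.7 ± 11.5, so these neighbours changed place with overlapping ranges. Cyp4a12b followed at 15.8 ± 4.57 and 24.01 ± 1.37 CPM per kb. It was below Cyp4a12a in every library, and its range overlapped that of Cyp4a32 (11.5 ± 2.88 and 11.0 ± 1.13) in HFDfre only. Cyp4a31 was the lowest, at 5.69 ± 1.30 and 4.29 ± 1.22 CPM per kb, with no overlap with Cyp4a32 in either group. In CPM, however, Cyp4a31 and Cyp4a32 overlapped in both groups. The reference transcript of Cyp4a32 holds only its 1530 coding bases, against 2509 bases for Cyp4a31, so the place of Cyp4a32 per kb depends on this annotation.

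Setting the PPARA-induced paralogs against the Cyp4a12 pair inside each library removes the scaling between libraries. The ratio of the summed counts of Cyp4a10, Cyp4a14 and Cyp4a31 to those of Cyp4a12a and Cyp4a12b ran from 1.69 to 8.35. On the log2 scale it was 1.86, 2.56, 1.85, 3.06 and 2.84 in HFDfre 1 to 5 and 0.98, 0.76, 1.87 and 0.94 in HFDfri 1 to 4. The means were 2.43 ± 0.56 and 1.14 ± 0.50 (SD), a difference of -1.30. HFDfri 3 was the exception in its group and lay just above HFDfre 1 and HFDfre 3, so the groups overlapped. Without HFDfri 3 the difference was -1.54, and without HFDfre 4 it was -1.14.

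Within each of the sets the members did not keep a fixed ratio. The log2 ratio of Cyp4a14 to Cyp4a10 averaged -0.40 ± 0.41 (SD) in HFDfre and -1.13 ± 0.28 in HFDfri. HFDfre 4 was the only library with more counts of Cyp4a14 than of Cyp4a10. The log2 ratio of Cyp4a12b to Cyp4a12a averaged -1.86 ± 0.48 in HFDfre and -1.23 ± 0.27 in HFDfri, and HFDfre 4 was the lowest at -2.63. Cyp4a31 counts were 0.0237 to 0.0491 of those of Cyp4a10 in all libraries.

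**Figure D2:**
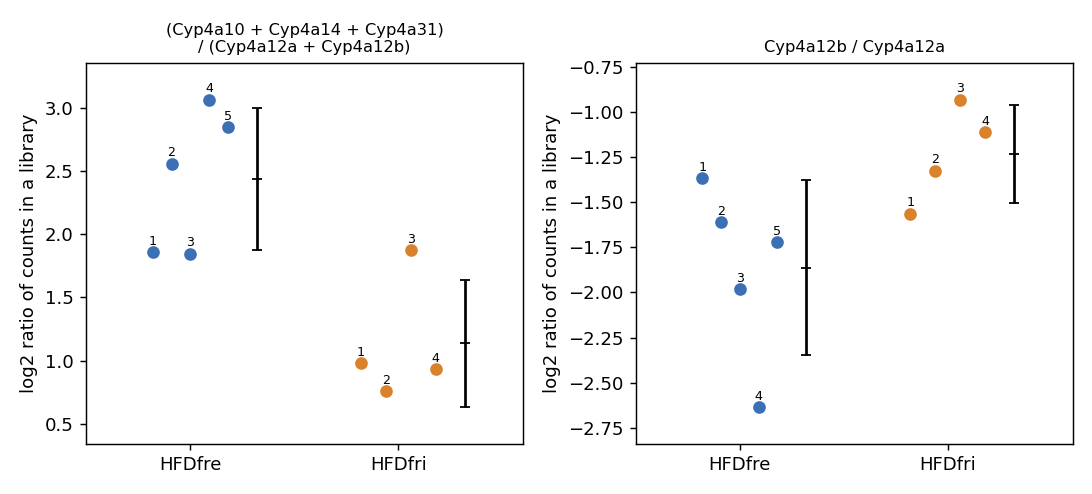
Log2 ratios of summed counts within a library, for the PPARA-induced paralogs over the Cyp4a12 pair (left) and for Cyp4a12b over Cyp4a12a (right), with 1 numbered point per library and bars at the mean ± SD of HFDfre (n = 5) and HFDfri (n = 4). On the left HFDfri 3 (1.87) lies beside HFDfre 1 (1.86) and HFDfre 3 (1.85), above the other HFDfri libraries, and on the right HFDfre 4 (-2.63) is the lowest.

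How the members varied among animals of the same group was not used in choosing them. For each gene the group mean was subtracted from log2 CPM, and the deviations of the 9 libraries were correlated. Cyp4a14 had the widest spread within groups, with an SD of 0.58 on the log2 scale against 0.28 for Cyp4a10 and 0.33 for Cyp4a12b. The p-values come from an exact permutation of libraries within groups (2880 orders, two-sided, smallest possible p 0.000347), adjusted over the 15 pairs of members.

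Cyp4a10 and Cyp4a14 tended to deviate together, with r = 0.87 (exact permutation p = 0.00694, adjusted 0.0521) and Spearman rho = 0.82 (exact permutation p = 0.0163, adjusted 0.116). This did not pass after adjustment. Without HFDfre 1 and HFDfre 4, the libraries furthest from the median of Cyp4a10, r was 0.72. Of 7086 genes whose mean log2 CPM was 3 or more, 24 had a higher r with Cyp4a10 than Cyp4a14 had. No 150-base window is shared by these genes. Cyp4a10 and Cyp4a31, which do share sequence, had r = 0.79 (exact permutation p = 0.0156, adjusted 0.0781) and rho = 0.75 (exact permutation p = 0.0253, adjusted 0.116), with r = 0.62 without the same 2 libraries.

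Cyp4a14 and Cyp4a12b deviated in opposite directions, the only pair of 15 to pass. Their r was -0.85 (exact permutation p = 0.00104, adjusted 0.0156) and rho was -0.92 (exact permutation p = 0.000694, adjusted 0.0104). Without HFDfre 1 and HFDfre 4, r was -0.55, so the relation rests in part on those libraries. Leaving out 1 library at a time gave r from -0.92 to -0.71. With HFDfre 1 left out, the exact permutation p adjusted over the pairs was 0.104. It was 0.156 with HFDfre 4 left out, 0.0781 for HFDfre 5, and 0.0625 for HFDfri 1 and also for HFDfri 3. With library totals in place of TMM, r was -0.70 (adjusted exact permutation p = 0.234). HFDfre 1 had the highest share of Gm26924 (11.1%) and HFDfre 4 the lowest share of major urinary protein (Mup) transcripts (5.12%), and the part of these in the relation was not tested. Despite their near-identical sequences, Cyp4a12a and Cyp4a12b had r of only 0.28 (exact permutation p = 0.572, adjusted 0.763) and rho of 0.32 (exact permutation p = 0.445, adjusted 0.607).

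**Figure D3:**
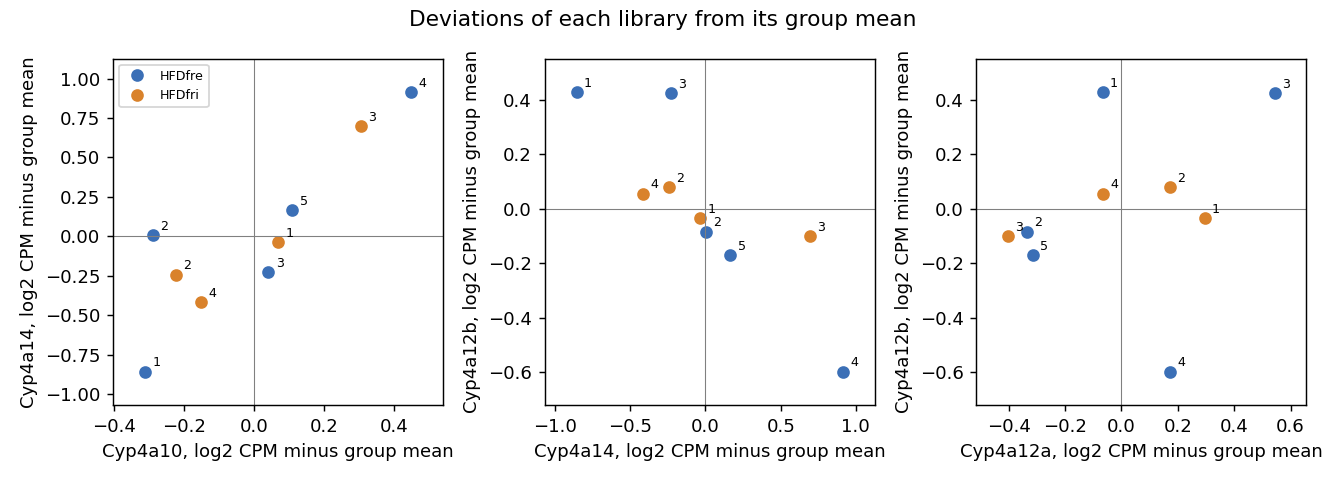
Deviation of each library from its group mean on the log2 CPM scale for 3 pairs of members, with HFDfre in blue and HFDfri in orange and libraries numbered within groups. Cyp4a10 and Cyp4a14 deviate together (r = 0.87) and Cyp4a14 and Cyp4a12b oppositely (r = -0.85), with HFDfre 1 and HFDfre 4 at the ends of both, whereas Cyp4a12a and Cyp4a12b show little relation (r = 0.28).

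By the same measure over the 9 libraries, the genes outside the family most like Cyp4a10 were Nol6 (r = 0.95), Xpot (0.95) and Yae1d1 (0.94), among 7081 genes compared. Those most like Cyp4a14 were Ddo (0.95), Lrpprc (0.95) and Eif4e (0.94), and those most like Cyp4a12a were Nat2 (0.90), Gstm3 (0.89) and Ddx20 (0.89). None of these 9 genes was called between the groups. These values of r are a description and carry no p-value.

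PPARA targets other than Cyp4a genes were followed in 3 lists, for peroxisomal oxidation, for mitochondrial oxidation and ketogenesis, and for other functions. These and the other gene lists below were written with earlier results of these data known, so their shares are a description. Of 55 tested, 36 were at lower and 19 at higher values in HFDfri. Their median log2 fold change was -0.14, against -0.01 for all tested genes. With edgeR 3 were called, all lower and all from the peroxisomal list, and DESeq2 called 9, against 1.05% and 7.26% of all tested genes. In the peroxisomal list 7 of 19 genes had an unadjusted edgeR p under 0.05, against 21.2% of all tested genes. Of these 6 were lower and 1 was higher. The higher gene, Nudt7, singled out after its values were seen, differed by 0.81 ± 0.18 on the log2 scale (SE, edgeR adjusted p = 0.0520), with no overlap between the groups.

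Acot3, a peroxisomal acyl-CoA thioesterase, fell from 28.8 ± 12.4 CPM in HFDfre to 5.26 ± 1.89 in HFDfri, which is -2.45 ± 0.30 on the log2 scale (SE, edgeR adjusted p = 0.0117). Acot4, a peroxisomal succinyl-CoA thioesterase, changed by -1.05 ± 0.16 (edgeR adjusted p = 0.0293). Abcd2, a peroxisomal fatty acyl-CoA transporter, changed by -0.83 ± 0.15 (edgeR adjusted p = 0.0354). These 3 genes, like Cyp4a10 and Cyp4a14, were highest in HFDfre 4. Acot3 and Abcd2 are also known as female-biased liver genes.

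Ehhadh and Cpt1a, well-known PPARA targets, did not pass the test. Ehhadh, an enzyme of peroxisomal oxidation that acts on dicarboxylic acids, differed by -0.06 ± 0.13 on the log2 scale (SE, edgeR adjusted p = 0.822). Cpt1a, the gate of fatty acid entry into mitochondria, was at 0.17 ± 0.10 (edgeR adjusted p = 0.368). Of the 17 mitochondrial genes none was called by edgeR or voom and 1 by DESeq2, and 4 had an unadjusted p under 0.05, of which 3 were lower, against 21.2% of all tested genes.

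The other targets included Cd36, a fatty acid transporter, at 56.0 ± 24.1 CPM in HFDfre and 24.3 ± 3.94 in HFDfri, with no overlap between the groups and an edgeR adjusted p of 0.0566. Vnn1, a pantetheinase, differed by -0.45 ± 0.15 on the log2 scale (edgeR adjusted p = 0.122). Fabp1, the liver fatty acid binding protein, had -0.37 ± 0.17 (edgeR adjusted p = 0.227). Values for Pdk4 (-0.30 ± 0.28), Fgf21 (0.39 ± 0.43), Acot1 (-0.13 ± 0.22) and Plin2 (0.30 ± 0.16) were within 2 SE of 0. None of the 19 genes in this list was called by edgeR or voom and 3 were by DESeq2, and 7 had an unadjusted p under 0.05, all lower, against 21.2% of all tested genes.

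Within groups, however, most targets deviated with Cyp4a10 and Cyp4a14. Of the 55, 51 had a positive r with Cyp4a10 (median 0.49) and 49 with Cyp4a14 (median 0.40), against 50.9% and 50.7% of all tested genes. For Cyp4a12a 29 were positive (median 0.09). For Cyp4a12b only 6 were positive (median -0.48), against 50.8% of all tested genes. Deviation with Cyp4a10 and Cyp4a14 was not particular to these targets. Of 10 tested female-biased liver genes, 9 had a positive r with Cyp4a10 (median 0.59) and 10 with Cyp4a14 (median 0.72). Acot3 and Abcd2 are in both lists. These values describe 9 libraries that every gene shares, with their depth and scaling, and carry no p-value.

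For the receptor itself most values lay in the other direction. Ppara was at 20.4, 28.4, 19.1, 26.2 and 14.6 CPM in HFDfre 1 to 5 and at 21.8, 38.9, 57.0 and 36.04 CPM in HFDfri 1 to 4. Only HFDfri 1 lay within the HFDfre range, and the difference was 0.82 ± 0.25 on the log2 scale (SE, edgeR adjusted p = 0.108). Its partner Rxra had 0.32 ± 0.12 (edgeR adjusted p = 0.159). Of the 14 genes for PPARA and its partners, 10 were at higher values in HFDfri. The 1 called by edgeR was Nr1i3, the constitutive androstane receptor, which was lower by 0.92 on the log2 scale (SE 0.16, edgeR adjusted p = 0.0333). It was called in 13 of 21 alternatives, library totals not among them. DESeq2 called 3 genes of this list, with Ppara among them. Of all tested genes, edgeR called 1.05% and DESeq2 7.26%. Ppara was also called by edgeR without HFDfri 1.

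The genes that serve the same route were not called by edgeR. Por, the reductase that hands electrons to microsomal P450 enzymes, differed by 0.10 ± 0.18 on the log2 scale (SE, edgeR adjusted p = 0.798). The next steps of omega-oxidation are run by alcohol dehydrogenase Adh1, at -0.22 ± 0.12 (edgeR adjusted p = 0.334), and fatty aldehyde dehydrogenase Aldh3a2, at -0.42 ± 0.15 (edgeR adjusted p = 0.148). None of 11 electron donors and dehydrogenases was called by edgeR or voom and 1 was by DESeq2, and 2 had an unadjusted p under 0.05, both lower. These shares were near those of all tested genes, 7.26% by DESeq2 and 21.2% at the unadjusted threshold. Their median log2 fold change was 0.01.

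Other Cyp4 genes, which act on other fatty acids and eicosanoids, were counted beside the members. Of 14 listed, 8 were tested, and 6 of these were at higher values in HFDfri (median log2 fold change 0.19). Cyp4f14, which hydroxylates leukotriene B4, was at 127 ± 23.6 CPM in HFDfre and 170 ± 18.5 in HFDfri (edgeR adjusted p = 0.118). Cyp4f15 had a log2 fold change of -0.15 ± 0.10, and Cyp4f13 of 0.00 ± 0.09. Cyp4b1, the neighbour of Cyp4a32 at the end of the cluster, was at 4.81 ± 0.49 and 4.52 ± 1.18 CPM. None was called by edgeR or voom and 1 was by DESeq2, and 2 had an unadjusted edgeR p under 0.05, both higher, near the 7.26% and 21.2% of all tested genes.

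Since Cyp4a12 genes are male-biased, male- and female-biased liver genes were set beside them. All 17 male-biased genes were at higher values in HFDfri (median log2 fold change 0.74). Of the 17, 6 were called by edgeR and 8 by DESeq2, against 1.05% and 7.26% of all tested genes. The list was written with earlier results of these data known, so nothing is read from these shares. The genes named below were called in this same comparison or are hallmark genes. The genes called by edgeR included Selenbp2, a selenium-binding protein, at 2.47 ± 0.30 (SE, edgeR adjusted p = 0.0117), and Serpina1e, a serpin, at 2.09 ± 0.36 (edgeR adjusted p = 0.0314). Cyp7b1, the oxysterol hydroxylase, rose by 1.51 ± 0.25 (edgeR adjusted p = 0.0293), and C6, a complement factor, by 1.14 ± 0.21 (edgeR adjusted p = 0.0354). The steroid dehydrogenase Hsd3b5 (1.17 ± 0.39), Elovl3 (0.28 ± 0.22) and Cyp2d9 (0.09 ± 0.11) were not called.

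Of 10 tested female-biased genes, 9 were at lower values in HFDfri (median log2 fold change -1.26), and the 2 called by edgeR were Acot3 and Abcd2. DESeq2 called 7 of the 10, and edgeR with library totals in place of TMM called 1. Of all tested genes, edgeR with TMM called 1.05% and DESeq2 7.26%. This list, too, was written with earlier results of these data known, so nothing is read from its shares. Cyp4a12b, at 0.61, lay near the median of the male-biased genes, whereas Cyp4a12a, at 0.01, was below each of the 17. Within groups, 15 of the 17 male-biased genes had a positive r with Cyp4a12b (median 0.47) and 10 with Cyp4a12a (median 0.03). With Cyp4a10, 3 of the 17 male-biased genes had a positive r (median -0.45), and with Cyp4a14 1 had (median -0.49). The female-biased genes had a positive r with Cyp4a10 in 9 of 10 (median 0.59) and with Cyp4a14 in 10 of 10 (median 0.72). With Cyp4a12b they had a positive r in 1 of 10 (median -0.60). The part of the sex-biased pattern in the differences of the members was not tested.

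**Figure D4:**
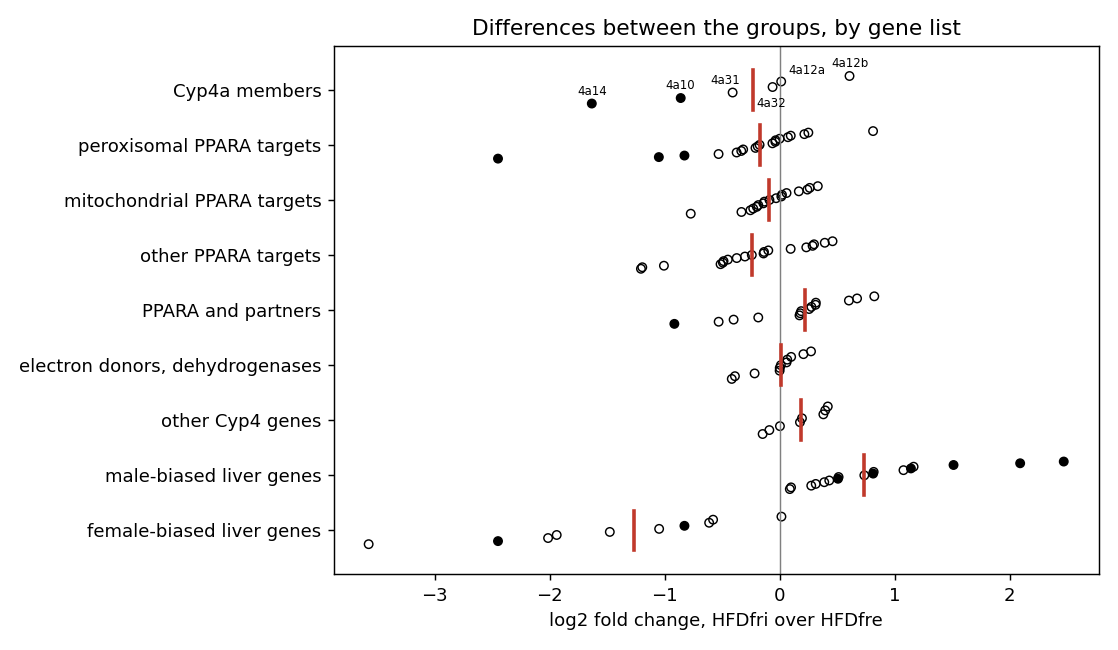
Log2 fold change (HFDfri over HFDfre) of the 6 Cyp4a genes and of the tested genes of 8 lists, with 1 circle per gene, filled where called by edgeR (adjusted p under 0.05), and a red bar at the median of each list; the 3 PPARA target lists have medians of -0.17, -0.09 and -0.24. Cyp4a14 (-1.63) and Cyp4a10 (-0.86) lie left of 0 and Cyp4a12b (0.61) right of it.

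Many liver P450 genes are expressed mainly around the central vein, so genes of the lobule zones were counted beside Cyp4a. Of 10 pericentral genes 9 were at lower values in HFDfri (median log2 fold change -0.31), and none was called by edgeR or voom. DESeq2 called 3 of the 10, and 5 had an unadjusted edgeR p under 0.05, against 7.26% and 21.2% of all tested genes. The summed level of the pericentral genes was 9349 to 11151 CPM in HFDfre and 8683 to 9613 in HFDfri. Glul, which marks the cells next to the central vein, had a log2 fold change of -0.11 ± 0.10, and Cyp2e1, an ethanol-metabolising P450, had -0.09 ± 0.12. Others were further below 0, among them Cyp1a2, a caffeine-metabolising P450, at -1.50 ± 0.58 and Oat, ornithine aminotransferase, at -0.43 ± 0.11 with no overlap between the groups, both singled out after their values were seen and neither called by edgeR. Of 10 periportal genes 6 were at lower values, with none called by edgeR or voom, 1 called by DESeq2 and 2 at an unadjusted edgeR p under 0.05, near the 7.26% and 21.2% of all tested genes. The part of these in the differences of Cyp4a10 and Cyp4a14 was not tested.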

How the data were processed

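The table that the authors deposited holds whole numbers per gene for 9 liver libraries, which were taken as estimated counts, not scaled between libraries. The submitters' processing notes name HISAT2, StringTie and mm10, without versions. The labels name a NEBNext Ultra kit and the methods another kit. Low values piled up at multiples of 4 (4 occurred 3990 times, 3 occurred 2172 times and 5 occurred 1840 times), so that counting error is only approximate, and the cause was not tested. The estimated counts were rounded, filtered with filterByExpr and compared as HFDfri minus HFDfre by edgeR 4.0.16 (glmQLFit, TMM, R 4.3.3, Benjamini-Hochberg over 14220 genes). Log2 CPM had 2 as its prior count. The SE is the size of the log2 fold change over the square root of F. DESeq2 1.42.0 and voom of limma 3.58.1 were alternatives. The scripts were tested on simulated data.

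Libraries count as replicates by their labels, and p-values measure the spread between them. Sequences and coordinates are from GENCODE M21 (GRCm38), with 1 transcript per gene.

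The members and lists were chosen with earlier results of these data known. The genes named are the members, 27 hallmark genes named by role (some not reported here), up to 4 called genes per list and direction, and the 3 genes most like Cyp4a10, Cyp4a14 and Cyp4a12a. The fit reported here did not pair the libraries. Replicate numbers follow the order of the sample titles, and pairing by the numbers in the column names was not tested.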

Additional observations from a re-analysis of the deposited data

Results flagged for a closer look

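In 82 sets of values of 1 group, each the log2 CPM of a gene named by rule or the log2 ratio of the PPARA-induced paralogs to the Cyp4a12 pair, 4 had a library further from the rest than Dixon's 95% value allows, where chance gives about 1 in 20, or 4.1. In HFDfre the gap as a share of the range was 0.759 for Cpt1a, whose highest library was HFDfre 4. It was 0.752 for Cyp2d9, with HFDfre 1 highest, and 0.732 for Selenbp2, with HFDfre 4 lowest. In HFDfri it was 0.833 for Cyp4b1, with HFDfri 1 lowest. No Cyp4a gene was among them.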

How the results depend on the processing

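The fall of Cyp4a10 and Cyp4a14 kept its direction in all alternatives, but the calls did not. The count of called genes (150) was 1033 by DESeq2, 76 when library totals replaced TMM, 72 if no filter was used, 38 with the share of Gm26924 as a covariate, and 6 to 1106 as each library was left out (6 without HFDfre 3 or HFDfre 5, 1106 without HFDfri 1). The members called (2) were 3 with DESeq2, 1 with robust dispersion and 0 with library totals, no filter or the covariate, and 0 to 2 as each library was left out. The PPARA targets called (3) were 9 with DESeq2, 5 with a minimum of 10 counts, 5 with counts divided by 4, 1 with the covariate, and 1 to 8 as each library was left out. In the fit with a replicate block, edgeR called 0 genes, 0 members and 0 targets (2536 genes at an unadjusted p under 0.05). Same-numbered libraries correlated at -0.136 to 0.0813. These numbers follow the order of the sample titles. The column names carry other numbers, and whether those pair the libraries was not tested. With library totals 27.6% of calls were lower, against 52.7%. The r of Cyp4a10 and Cyp4a14 was 0.77 to 0.97 as each library was left out, with an adjusted exact permutation p of 0.0260 without HFDfre 2 or HFDfre 3. For Cyp4a14 and Cyp4a12b, an alternative set chosen after seeing the data, it was -0.92 to -0.71, and -0.70 with library totals. The log2 fold change changed sign for Cyp4f13 (-0.0064 with no filter, -0.0074 with a minimum of 10 counts, -0.016 with the replicate block, -0.0080 with counts divided by 4, and -0.063 to 0.045 as each library was left out) and for Cyp4b1 (0.013 with the covariate, -0.18 to 0.073 as each library was left out). As each library was left out, it ran from -0.15 to 0.028 for Ehhadh, from -0.026 to 0.66 for Fgf21, from -0.26 to 0.072 for Acot1 and from -0.040 to 0.25 for Por. The causes were not tested. Cyp4a31, the lowest member, rests on 552 to 1408 counts per library. Shared sequence limits Cyp4a12a and Cyp4a12b, which have the largest share of common windows. It also limits Cyp4a31 and Cyp4a32, which share windows with the far higher Cyp4a10.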

Other observations

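Of 14 clock genes tested, 7 were at higher and 7 at lower values in HFDfri (11 and 3 with library totals in place of TMM). EdgeR called 1 of them, against 1.05% of all tested genes. The called gene was Dbp, a clock output factor, which fell from 82.4 ± 11.2 CPM in HFDfre to 47.4 ± 7.46 in HFDfri. Its log2 fold change was -0.80 ± 0.13 (SE, edgeR adjusted p = 0.0293). Of 12 fasting response genes other than PPARA targets, 9 were at higher values in HFDfri (median log2 fold change 0.42). None of them was called by edgeR or voom and 2 were by DESeq2, and 4 had an unadjusted edgeR p under 0.05, all higher, against 7.26% and 21.2% of all tested genes. The hour at which livers were taken and the feeding state at that time are not given in the sources used here, and their part in the levels of Cyp4a10 and Cyp4a14 was not tested.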
